A study of Mus musculus with 18 samples.

Results

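The GATA factor genes examined here are Gata2, Gata3, Gata4, Gata5 and Gata6, 5 of the 17276 protein-coding genes of chromosomes 1 to 19 and X for which a start was used. They were taken by name, with no threshold on measured values, though with earlier results of these data known. Gata1, the remaining gene of that name, is not among them and is counted with related genes at the end. For each gene, windows of 1 kb were read in all 18 tracks of the series and sorted into start windows (centre within 1 kb of the transcription start), gene body windows, and flank windows within 20 kb of either end of the gene. All of these together are called the locus.

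E14 cells, an established line of mouse embryonic stem cells, were grown in 2i/LIF medium, in which MEK and GSK3 inhibitors and the cytokine LIF hold the cells in an undifferentiated state, with isotope-labelled arginine and lysine. Chromatin immunoprecipitation and sequencing gave 18 libraries in 9 groups of 2 replicates. Untreated cells without added chromatin gave 10 of them, 2 for each of H3K36me2, H3K36me3 and the mono-, di- and trimethyl states of H3K27 (H3K27me1, H3K27me2, H3K27me3). The other 8 were quantitative libraries for H3K27me3 or H3K36me2 from cells kept for 7 days in DMSO (the solvent) or in 10 µM EPZ-6438, which blocks the catalytic activity of EZH2, and a spike-in of Drosophila S2 chromatin at 0.05% of the total was added before precipitation. The labels do not say whether replicates were separate cultures, so p-values measure only the spread between these libraries, which may be technical.

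GATA factors are zinc-finger transcription factors that bind the sequence that gave them their name. Gata2 and Gata3 act mainly in blood, trophoblast, neural and lymphoid lineages, and Gata4, Gata5 and Gata6 in heart and endoderm. Such lineage genes are classic targets of Polycomb repressive complex 2, whose catalytic subunit EZH2 places methyl groups on H3K27 around CpG-rich starts of genes that are silent in stem cells. H3K36me2 and H3K36me3 are instead placed by NSD enzymes and SETD2, and H3K36me3 follows transcribed gene bodies.

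Estimated read totals, in units of 1000000 reads (M), were 17.3 to 50.9 M in the untreated libraries and 16.3 to 84.4 M in the quantitative ones, apart from the inhibitor libraries for H3K27me3 with 0.749 and 1.34 M. Levels are given as a multiple of the mean window of that library, unless the spike-in scale is named. The stem cell state was checked with H3K36me3 over gene bodies, in untreated cells only. H3K36me3 was not measured in the DMSO and inhibitor cells, so their state was not checked. The 7 stem cell markers with a start here, Pou5f1, Nanog, Sox2, Klf4, Zfp42, Tdgf1 and Esrrb, had a median H3K36me3 body level of 6.92, against 2.06 over all genes, and 1 of them (Esrrb) had its start in an H3K27me3 peak. Of 4 markers of endoderm-like cells with a start here, 3 (Foxa2, Pdgfra, Col4a1) had their start in an H3K27me3 peak, and H3K36me3 body levels over the 4, the other being Dab2, ran from 0.409 to 2.17.

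The sequences just upstream of the starts are shown because they are the CpG-rich stretches over which H3K27me3 was measured at Gata2, Gata3 and Gata5. They are 250 bases long, run 5′ to 3′ on the coding strand and come from RefSeq (GRCm38.p6), with every CpG in capitals. The RefSeq table held 3 of the 5 genes. Gata4 and Gata6 are named only, and their starts were set at the 5′ edge of the gene model. The Gata2 stretches are at chr6:88193641-88193890 and, inside the gene, chr6:88198414-88198663 (plus strand). The Gata3 stretch is at chr2:9878601-9878850 and the Gata5 stretch at chr2:180334680-180334929 (both minus strand, both inside the annotated gene because other transcripts reach further upstream).

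Gata2 upstream start: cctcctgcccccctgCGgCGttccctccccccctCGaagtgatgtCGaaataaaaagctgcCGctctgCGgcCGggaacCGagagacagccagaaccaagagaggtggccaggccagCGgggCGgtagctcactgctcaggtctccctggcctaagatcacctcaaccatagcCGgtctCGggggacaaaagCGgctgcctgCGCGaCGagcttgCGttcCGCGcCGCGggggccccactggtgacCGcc
Gata2 downstream start: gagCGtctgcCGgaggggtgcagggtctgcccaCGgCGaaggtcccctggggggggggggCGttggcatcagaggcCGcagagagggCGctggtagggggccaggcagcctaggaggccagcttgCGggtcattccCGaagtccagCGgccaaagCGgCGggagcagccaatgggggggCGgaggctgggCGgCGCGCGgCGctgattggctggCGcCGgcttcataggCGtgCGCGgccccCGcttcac
Gata3: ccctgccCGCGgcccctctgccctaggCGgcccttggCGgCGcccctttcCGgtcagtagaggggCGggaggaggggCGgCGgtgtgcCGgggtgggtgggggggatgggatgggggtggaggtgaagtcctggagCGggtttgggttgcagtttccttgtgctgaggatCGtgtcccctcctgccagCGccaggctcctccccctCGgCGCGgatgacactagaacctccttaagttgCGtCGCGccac
Gata5: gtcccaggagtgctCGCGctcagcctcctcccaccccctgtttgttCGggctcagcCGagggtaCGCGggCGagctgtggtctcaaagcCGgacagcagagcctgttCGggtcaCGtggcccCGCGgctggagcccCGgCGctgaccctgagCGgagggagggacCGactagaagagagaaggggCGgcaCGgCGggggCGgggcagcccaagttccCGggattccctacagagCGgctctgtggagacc

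These 4 stretches held 22, 24, 19 and 22 CpGs, against a median of 10 over 21045 promoters of the same length, which placed them between the 73.6 and 84.3 percentile. Their G and C content was 67.2% to 74.0%, against a median of 55.6%. None held a GATA hexamer (AGATAA, the variant TGATAA, and with a final G the forms AGATAG besides TGATAG, searched on both strands), and 23.6% of all promoters held at least 1. That says only that these letters are not in these windows.

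The question put to the untreated libraries was which marks lay over the 5 genes in undifferentiated cells. Every one of the 5 starts lay in an H3K27me3 peak of the authors' replicated list, a state shared by 33.7% of the 17276 genes. The peaks were long. The peak over Gata5, a cardiac and endodermal activator, ran for 122.5 kb (chr2:180322001-180444500), 210th by length of 43094 peaks, and reached 110 kb upstream of the start, beyond the flank windows used here. The peak over Gata4, which acts in heart and endoderm, was 72.5 kb long (chr14:63227001-63299500, 762nd). Gata3, the trophoblast and T cell regulator, lay under 37.0 kb (chr2:9865501-9902500), Gata6, the primitive endoderm regulator, under 34.5 kb (chr18:11044001-11078500), and Gata2, the blood stem cell regulator, under 34.0 kb (chr6:88176001-88210000). The Gata3, Gata6 and Gata2 peaks ranked 2584th, 2916th and 2974th by length. The median H3K27me3 peak was 7.0 kb long. Peaks picked because they cover a given point tend to be long, and lengths over other starts in a peak were not compared. Peaks covered all of the Gata2 and Gata5 gene models (chr6:88193891-88207032 and chr2:180325088-180335503). At Gata4 (chr14:63198914-63271712), Gata6 (chr18:11052510-11085636) and Gata3 (chr2:9857078-9887953) they covered 92.4%, 86.4% and 79.2%. By the authors' own peak score, a value of unstated scale used here only to rank, the order was Gata5 (113th), Gata4 (427th), Gata3 (603rd), Gata2 (869th) and Gata6 (1257th).

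**Figure D1:**
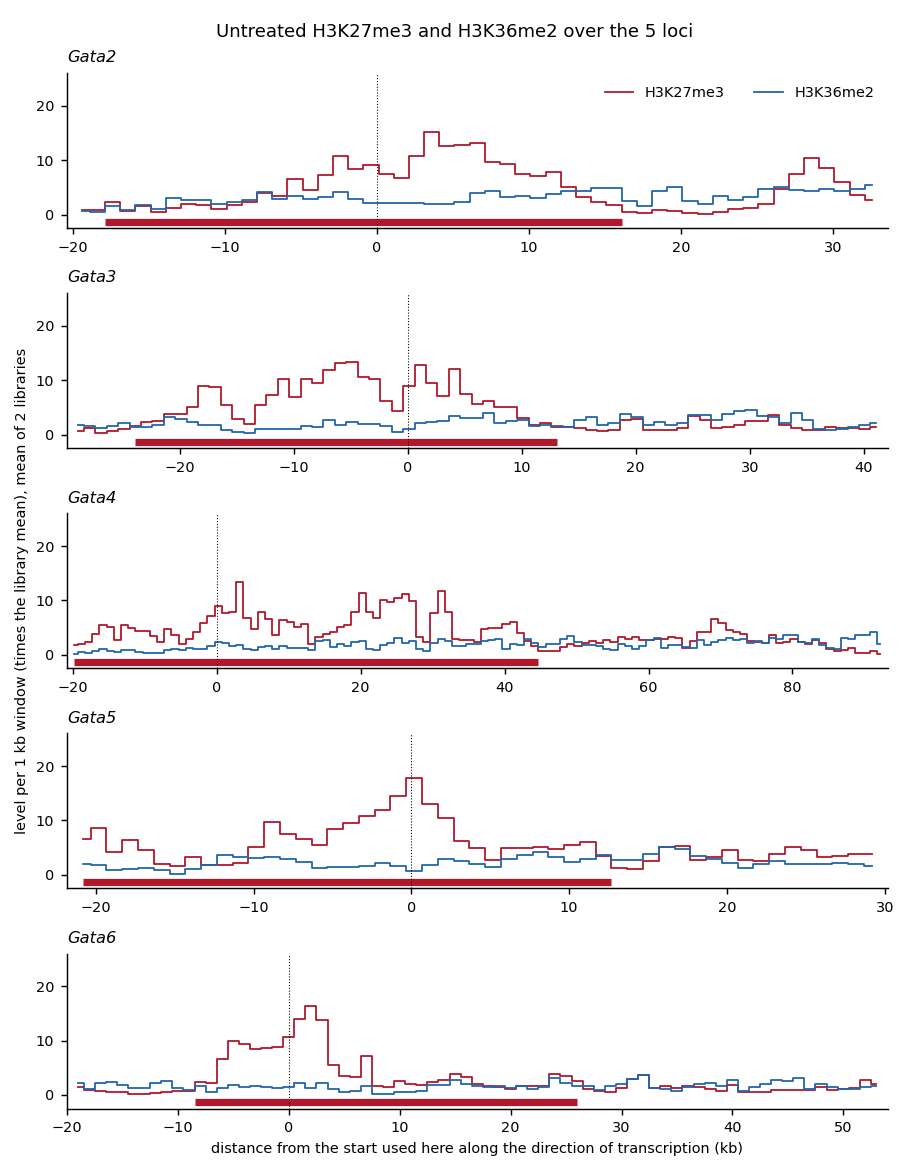
Untreated H3K27me3 (red line) and H3K36me2 (blue line) in 1 kb windows over the 5 loci, as the level in multiples of the library mean (y axis, mean of 2 libraries) against the distance from the start in kb (x axis, direction of transcription to the right). The red bar is the part inside the locus of the H3K27me3 peak over the start. H3K27me3 stands highest at the Gata5 start, and lies in several mounds over Gata3 and Gata4.

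At the start itself, untreated H3K27me3 differed between the genes. Gata5 stood at 16.4 and 15.9 times the library mean in the 2 libraries, rank 60 of 17276 genes. Gata6 followed at 10.9 and 13.7 (rank 293). Gata2 had 8.28 and 8.44, Gata4 7.29 and 8.67, and Gata3 6.04 and 7.36 (rank 1581). The range of Gata5 lay above that of Gata6, and that of Gata6 above the other 3. Gata2 and Gata4 overlapped, as did Gata4 and Gata3, and the median over all genes was 0.470.

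Over gene bodies the order was another one. Gata2 was highest (9.76 and 9.86), then Gata5 (6.39 and 6.30), Gata3 (5.90 and 6.25), Gata4 (4.80 and 4.87) and Gata6 (3.15 and 3.32). Gata6 thus went from the second highest start level, 12.3 ± 2.00, to the lowest body level, 3.24 ± 0.120 (SD, n = 2). At the second, downstream start of Gata2 the level was 12.7 in both libraries, above that at its upstream start. Flanks were highest at Gata5 (4.79 and 4.82) and ran from 2.24 to 3.06 as means at the others, against a median of 0.875 over all genes.

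The windows of highest untreated H3K27me3, called the summit here, were the 4 adjacent windows with the largest sum. They lay close to the start at Gata5 (centre at -322 bp, negative being upstream) and Gata6 (1491 bp). At Gata2 the centre was 5110 bp downstream, next to the second start. At Gata3 it was at -5401 bp from the start used, still inside the annotated gene. At Gata4 the summit lay 24711 bp inside the gene (chr14:63245001-63249000). So the start windows used for Gata2, Gata3 and Gata4 did not hold the highest H3K27me3 of their loci. For Gata4 the start used is only the 5′ edge of the gene model. Whether another Gata4 start lies nearer the summit was not examined, so levels at the Gata4 start hold for that edge alone.

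The lower methylation states of the same lysine stood below the library mean at the starts, as they did at the median gene. None of the 5 starts lay in an H3K27me1 or H3K27me2 peak, where 31.8% and 36.8% of all genes did. H3K27me1 start levels were 0.241 to 0.978 and H3K27me2 levels 0.242 to 0.914 over the 10 values of each mark. Medians over all genes were 0.948 and 0.902. Among all genes the H3K27me1 means lay between percentile 11.2 and 34.2. The H3K27me2 means stood at percentile 13.5 for Gata6, 22.5 for Gata5, 29.9 for Gata4, 41.7 for Gata2 and 50.3 for Gata3. For H3K27me2, Gata6 (0.242 and 0.279) and Gata5 (0.269 and 0.580) overlapped at the low end, and Gata3 was highest (0.914 and 0.902). At Gata2 the 2 H3K27me1 libraries gave 0.856 and 0.241, and the 10 values rest on 8 to 40 reads each, so an order among the genes was not detectable for that mark. H3K27me2 lay outside the starts: its peaks covered 75.2% of the Gata5 locus and 71.8% of the Gata2 locus, and 44.3%, 40.1% and 32.3% of those of Gata4, Gata3 and Gata6. Peak cover over the loci of other genes is not given. By H3K27me2 level among all genes, the loci stood at percentile 71.1 for Gata5 and 69.4 for Gata2. Those of Gata4, Gata3 and Gata6 were below the median gene, at 43.6, 43.3 and 42.8. H3K27me1 peaks covered 28.8% of the Gata5 locus and none of the Gata3 locus.

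H3K36me2 shared these loci with H3K27me3. Its peaks covered 96.2% of the Gata2 locus, 85.1% for Gata5, 83.1% for Gata3, 77.9% for Gata6 and 68.3% for Gata4. The cover over the loci of all genes is not given here. By H3K36me2 level the loci stood at percentile 97.2 for Gata2, 82.6 for Gata5, 76.1 for Gata3, 64.2 for Gata4 and 54.6 for Gata6. Of the 5 starts, 4 lay in an H3K36me2 peak, all but Gata3, and 55.8% of all genes did. Start levels ran from 0.616 and 0.937 at Gata3 to 1.91 and 2.30 at Gata2. Body levels were 3.48 and 2.63 at Gata2, 2.79 and 2.71 at Gata5, and 1.61 and 1.46 at Gata6. H3K36me3, the mark of transcribed bodies, was 2.70 and 3.04 over Gata2 and 1.72 and 1.73 over Gata3. It was 0.944 to 1.39 over Gata4, Gata5 and Gata6. Among all genes these were percentile 34.8 for Gata4, 35.7 for Gata5, 28.5 for Gata6, 44.7 for Gata3 and 60.1 for Gata2, and the stem cell markers, such as Pou5f1 at 8.24, were higher.

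**Figure D2:**
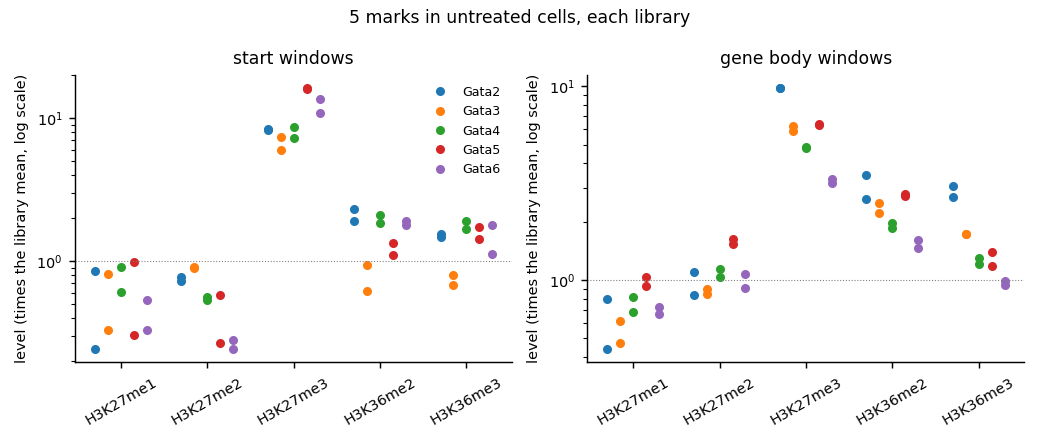
Level of the 5 marks (x axis) in untreated cells at the start windows (left) and gene body windows (right) of each gene, in multiples of the library mean on a log scale (y axis). Each point is 1 library and colours are genes. All 10 H3K27me3 points lie above the dotted line at the library mean on both sides, and all 10 H3K27me1 and H3K27me2 start points lie below it.

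Of all 15549 genes with values in all window classes, the 3 with the profile nearest to each member over 30 values (5 marks, 2 libraries, 3 window classes, Euclidean distance of log2 levels) were Rtn4r, Sdk2 and Col4a2 for Gata5, and Gja3, Ptpn5 and Rbm24 for Gata6. They were Rbp4, Rxrg and Alox12b for Gata4, Lypd3, Prr18 and Kbtbd13 for Gata2, and Prickle1, Shank3 and Trim62 for Gata3. Distances were 1.30 to 2.07, against a median gene at 9.39 to 10.9, below which the nearest genes lie by construction. Gata4 and Gata6 were the closest pair among the 5 themselves, at 2.44. The 3 nearest genes of either lay closer, at 1.57 to 1.91.

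H3K27me3 fell at all 5 genes under EZH2 inhibition on the spike-in scale. In DMSO, the start windows of Gata5 held 1102 and 790 scaled reads per window, and after the inhibitor 4.72 and 5.20. Gata6 went from 886 and 559 to 3.99 and 3.51. Gata2 went from 683 and 494 to 1.45 and 1.09. At Gata4 the values were 455 and 297 in DMSO and 0.242 and 0.347 after the inhibitor, and at Gata3 440 and 273 against 0 and 0.149. Every inhibitor library lay below every DMSO library at every gene of the 5, as at 99.2% of the 14136 genes tested. As ratios of means, the starts were 191-fold lower at Gata5, 192-fold at Gata6 and 463-fold at Gata2. The Gata3 and Gata4 ratios rest on 3 and 9 inhibitor reads and are not given. The mean over the whole genome was 534-fold lower, 42.2 against 0.0790.

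With limma on log2(scaled reads per window + 1), a scale that understates falls to values below 1, the start windows fell by 7.29 ± 0.311 (log2, SE) at Gata5. The falls were 7.21 ± 0.338 at Gata6, 8.01 ± 0.315 at Gata2, 8.15 ± 0.330 at Gata4 and 8.34 ± 0.345 at Gata3. The Gata4 and Gata3 starts held 9 and 3 inhibitor reads and met the read minimum only through DMSO, where they were high. The sizes and calls at these starts are therefore not independent of the filter. Adjusted p was 2.60e-06 for Gata6 and 2.37e-06 for the other 4, in limma with Benjamini-Hochberg adjustment over all genes tested. All 5 were called lower, and so were 99.2% of the 14136 genes tested at the start. All 5 were also called lower in body (99.9% of 14814 genes), flank (100% of 17082, rounded) and locus windows (99.9% of 17104). The locus fell by 6.59 at Gata6 and by 7.16 to 7.52 at the other 4. Shares of the genome this large say nothing particular about GATA genes. Every level on this scale rests on the factor in the deposited tracks, whose derivation is not given in the sources used here.

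Relative to what was left in the inhibitor libraries, the 5 starts parted. Gata5 stood at 22.7 and 22.1 times the library mean in DMSO and at 51.8 and 77.8 after the inhibitor, on 39 and 105 reads. Gata6 stood at 18.2 and 15.7 in DMSO and at 43.8 and 52.6 after the inhibitor, on 33 and 71 reads. The inhibitor means ranked 85th and 148th of 17276 starts, and the DMSO means 91st and 339th. The rank of Gata5 thus hardly moved, though its level was higher. Gata2 was at 14.0 and 13.8 in DMSO (634th) and at 15.9 and 16.3 after the inhibitor (12 and 22 reads, 467th). Gata4 was at 9.34 and 8.31 in DMSO and 2.66 and 5.19 after it, on 2 and 7 reads. Gata3 was at 9.04 and 7.65 in DMSO and 0 and 2.22 after it, on 0 and 3 reads, which gives a pooled level of 1.43 with a 95% exact Poisson interval of 0.294 to 4.17. That interval covers counting error only. The groups did not overlap at any of the 5 starts, the inhibitor pair being higher at Gata5, Gata6 and Gata2 and lower at Gata4 and Gata3. The Gata2 direction turned when levels were divided by the median of 10 kb bins in place of the mean (log2 difference 0.21 with the mean, -0.30 with the median). Of 2727 starts with at least 200 reads, 14.5% had both inhibitor libraries higher and 64.9% both lower. That minimum is met mostly by reads of the deeper DMSO libraries, so it picks starts that are high in DMSO, and neither share is independent of it.

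**Figure D3:**
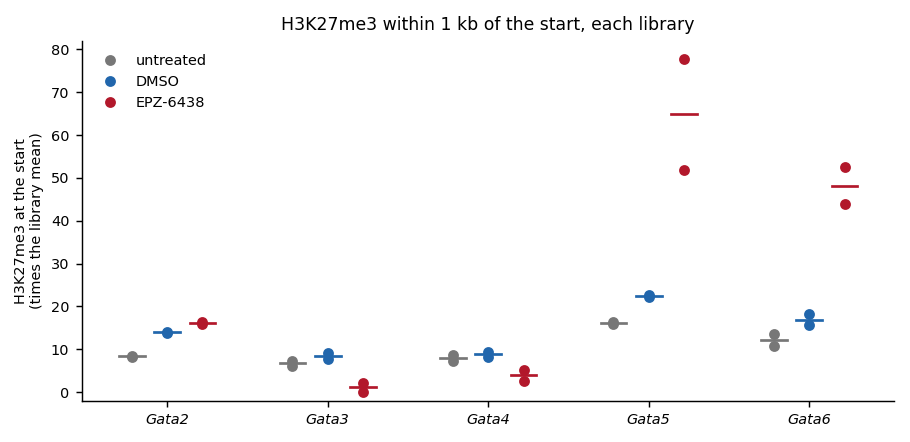
H3K27me3 in the start windows of the 5 genes, as a multiple of the library mean (y axis), in the untreated (grey), DMSO (blue) and EPZ-6438 (red) libraries. Points are libraries and bars are means of 2. The red points lie above the blue ones at Gata5, at Gata6 and, by a small margin, at Gata2, and below them at Gata3 and Gata4.

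A background for these residual levels comes from genes with little H3K27me3 before treatment. The 7 stem cell markers had untreated start levels of 0.0392 to 0.313 except Esrrb (6.23), and inhibitor means of 0 (Tdgf1) to 3.92 (Klf4). The inhibitor means of Gata3 (1.11) and Gata4 (3.92, as at Klf4) did not exceed that range. Gata2 (16.1), Gata5 (64.8) and Gata6 (48.2) were above it. Against all 17276 starts, with a median inhibitor level of 1.78, Gata4 ranked 2831st and Gata3 10860th. The exact Poisson interval of the pooled Gata4 level, 1.96 to 8.12 on 9 reads, lay above that median. The Gata3 interval, 0.294 to 4.17, covered it. So H3K27me3 at the Gata3 start was not detectable above either background at this depth. At the Gata4 start it was above the median of all starts but not above the marker range.

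The share of a library's H3K27me3 reads at each start was tested with limma-voom on recovered reads and library totals, for genes with at least 200 reads over the 4 libraries. The log2 value was 1.55 ± 0.196 (SE) at Gata5 (limma-voom adjusted p = 5.36e-06) and 1.55 ± 0.189 at Gata6 (limma-voom adjusted p = 3.47e-06). Both inhibitor libraries were higher at each of these genes. The inhibitor libraries together held 144 reads at the Gata5 start and 104 at the Gata6 start. Both starts thus met the minimum only with their DMSO reads, and neither call is independent of the filter. At Gata3 the log2 value was -2.67 ± 0.688 (limma-voom adjusted p = 0.00857, both lower), but Gata3 met the minimum through its 148 and 162 DMSO reads alone, against 0 and 3 after the inhibitor, so this call is not independent of the filter and is not read as a fall in share. Gata2 (0.25 ± 0.270, adjusted p = 0.473, and -0.19 with the other set of windows) and Gata4 (-1.04 ± 0.646, adjusted p = 0.237, limma-voom) did not pass. Of 2727 genes tested, 11.9% were called higher and 10.3% lower (324 and 281 genes). That balance moved to 178 higher and 451 lower with limma at a pseudocount of 1, to 281 and 86 with the other set of windows, and to 4547 and 841 of 14136 with at least 10 reads, where the median was 0.65 against -0.76 with 200. In the limma-voom fit the median change over those with a peak at the start was -0.76. Among the genes tested, which the same minimum picked, Gata5 stood at percentile 95.9, Gata6 at 95.7 and Gata3 at 2.05. All 3 calls were lost without either DMSO library, with limma-voom adjusted p of 0.170 and 0.193 for Gata5, 0.0930 and 0.125 for Gata6, and 0.270 and 0.262 for Gata3, and no gene at all was called in those 2 fits. Values there were 1.42 to 1.64 for Gata5 and Gata6 and -2.55 and -2.79 for Gata3, and without an inhibitor library Gata3 gave -1.69 and -3.65. The Gata3 call was also lost with the other set of windows (-1.87, adjusted p = 0.0960), and Gata4, which also met the minimum through its DMSO reads, was called lower without either inhibitor library (-0.67 and -1.41, limma-voom).

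Over whole loci the shares moved less. At Gata3 the log2 value was -0.95 ± 0.159 (SE, limma-voom adjusted p = 1.89e-05). Gata3 met the read minimum only through its 2863 and 3686 DMSO reads, against 72 and 116 after the inhibitor. The Gata3 locus call is therefore not independent of the filter. The share fell at Gata4 by 0.60 ± 0.145 (log2, SE, limma-voom adjusted p = 0.00114) and rose at Gata6 by 0.71 ± 0.142 (adjusted p = 0.000169). Gata2 (-0.04 ± 0.136) and Gata5 (0.00 ± 0.149) did not pass, with adjusted p of 0.840 and 0.983 in limma-voom. Of 16136 genes tested, 40.9% were called higher and 15.6% lower, and of the 5822 whose start lay in a peak 12.5% and 37%. As ratios to the library mean, locus levels in DMSO and after the inhibitor were 4.91 and 2.56 at Gata3, 4.17 and 2.74 at Gata4, 3.20 and 5.17 at Gata6, 6.56 and 6.36 at Gata2 and 6.25 and 6.17 at Gata5. The exact permutation p is 0.33 at Gata3, Gata4 and Gata6, 0.67 at Gata2 and 1 at Gata5, and 2 against 2 libraries cannot go below 0.33 (two-sided). At Gata5 the start rose while the flanks went from 5.26 ± 0.0757 to 3.09 ± 0.611 times the library mean (SD, n = 2).

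The reads that were left lay more narrowly in the loci, most clearly at Gata4, Gata5 and Gata6. At Gata5, 23.0% and 24.0% of the H3K27me3 reads of the locus fell in the 4 summit windows in DMSO, and 56.6% and 59.1% after the inhibitor. At Gata6 the share was 33.2% and 30.6% in DMSO and 67.2% and 63.2% after it. At Gata2, where the summit lies by the downstream start, it was 25.7% and 23.3% in DMSO and 32.0% and 47.9% after it. At Gata4, with its summit deep in the gene, it was 11.8% and 10.5% in DMSO and 22.3% and 22.4% after it. At Gata3 it was 19.7% and 17.6% in DMSO and 20.8% and 31.9% after it. The inhibitor pair was above the DMSO pair at each of the 5 genes, on 15 to 180 inhibitor reads per summit and library, and the exact permutation p of 0.33 is the smallest possible at each. The lower inhibitor shares rest on 15 of 72 reads at Gata3 and 39 of 122 at Gata2. Counting error, which was not tested, may cover the margin over DMSO at these 2 genes. Of 5821 genes with a start in an H3K27me3 peak and reads in each library, 15.3% had both inhibitor libraries higher by the same measure, and the median difference was -4.89 percentage points, against 7.72 (Gata3) to 34.3 (Gata5). Those genes were not matched to the 5 for read number. The summits were located in the untreated libraries, which these percentages do not use.

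**Figure D4:**
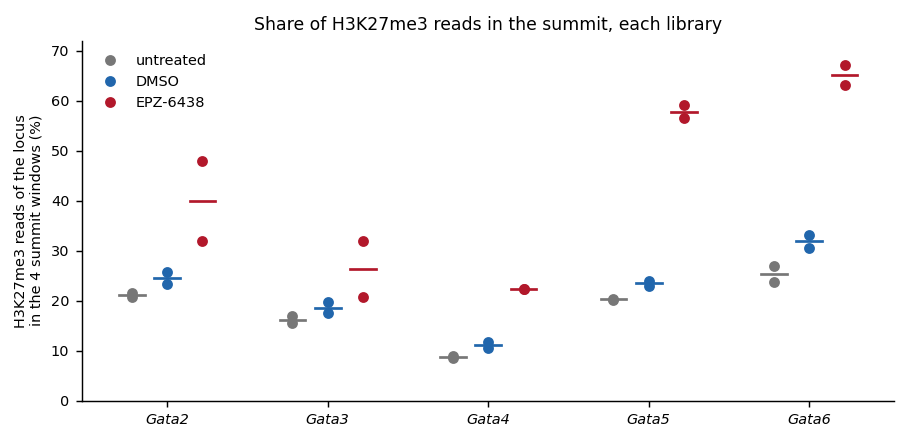
Percentage of the H3K27me3 reads of each locus that fell in its 4 summit windows (y axis, from 0), for untreated (grey), DMSO (blue) and EPZ-6438 (red) libraries. Points are libraries and bars are means of 2. The red means are 57.8% at Gata5 and 65.2% at Gata6, and 22.4% to 39.9% at the other 3 genes.

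Against the library mean, summit levels in DMSO and after the inhibitor were 18.6 ± 1.13 and 61.2 ± 7.73 at Gata6, and 18.7 ± 0.829 and 45.6 ± 12.0 at Gata5 (SD, n = 2). At Gata2 they were 21.3 ± 1.32 and 33.9 ± 11.3, and the windows at its downstream start went from 20.3 to 34.8. At Gata4 they were 13.2 ± 2.50 and 17.3 ± 0.885, and at Gata3 16.3 ± 1.40 and 11.8 ± 2.65. The Gata4 direction was thus the reverse of that at the start used, where the inhibitor pair was lower. At Gata3 the inhibitor pair was lower at both places. After the inhibitor the Gata4 summit was above the Gata4 start (17.3 against 3.92), as in DMSO (13.2 against 8.82), while the mean over the Gata4 body was 3.399 ± 0.113. Levels at the downstream start of Gata2 were likewise above those at the upstream one after the inhibitor (34.8 against 16.1) and in DMSO (20.3 against 13.9).

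H3K36me2 was measured in the same design to ask whether it moved where H3K27me3 was removed. Over the loci, none of the 5 genes was called in limma on the spike-in scale. Gata5 held 860 and 554 scaled reads per window in DMSO and 1000 and 605 after the inhibitor (999.7 and 604.6 before rounding). Gata2 held 936 and 594 in DMSO and 1003 and 576 after it. Gata3 held 673 and 452 in DMSO and 780 and 444 after it. Replicate 1 was higher than replicate 2 in both arms, and the arms overlapped. Gata4 held 579 and 321 in DMSO and 740 and 338 after it, and Gata6 526 and 322 in DMSO and 670 and 363 after it.

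**Figure D5:**
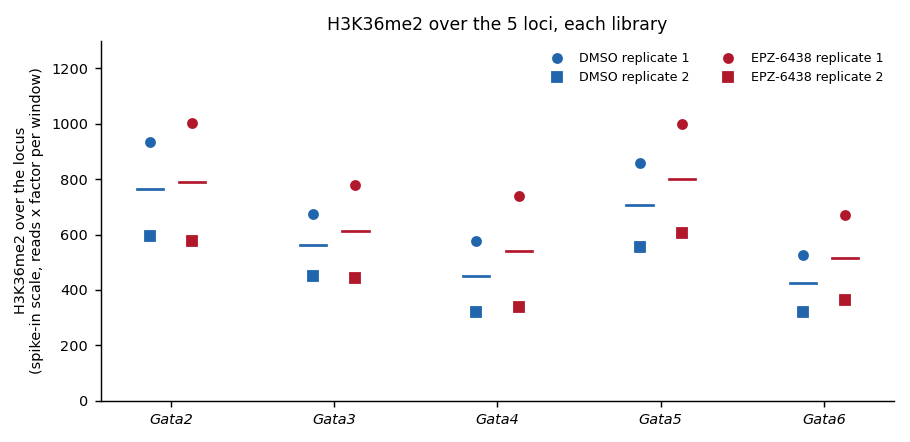
H3K36me2 over each locus in scaled reads per window on the spike-in scale (y axis, from 0), in the DMSO (blue) and EPZ-6438 (red) libraries, with circles for replicate 1, squares for replicate 2 and bars for means of 2. At every gene the gap between replicates is wider than the gap between the bars.

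The log2 changes over the locus were 0.03 at Gata2, 0.09 at Gata3, 0.17 at Gata5, 0.21 at Gata4 and 0.26 at Gata6, each with an SE of 0.495 and an adjusted p of 1 in limma. Of the 17153 loci tested, 0 passed, 102 had an unadjusted p under 0.05, and limma-voom on the spike-in scale called 1. At the starts, where none of the 5 passed, 0.413% of 16710 genes were called higher and 0.018% lower. In body windows the called shares were 0.118% higher and 0.00654% lower of 15301 genes, and in flank windows 0 of 17142 passed (104 at an unadjusted p under 0.05, 0 with limma-voom), again with none of the 5. Relative to the library mean, which the overall gap between replicates does not touch, Gata2 went from 2.84 ± 0.0762 to 2.51 ± 0.0414 and Gata3 from 2.10 ± 0.0274 to 1.95 ± 0.0218 (SD, n = 2), with both inhibitor libraries lower, as at 47.2% of 16981 loci (both higher at 20.3%). The exact permutation p was 0.33 for both, the smallest possible. Tested as a share of reads with limma-voom, the log2 difference was -0.19 ± 0.0629 at Gata2 (adjusted p = 0.116) and -0.11 ± 0.0606 at Gata3 (adjusted p = 0.230), and neither passed, while 0.342% of 16981 loci were called higher and 0 lower. The arms overlapped at Gata4, Gata5 and Gata6.

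Genes that work with GATA factors were counted from short lists. Of the blood partners with a start here, 6 of 8 had it in an H3K27me3 peak, as did 3 of 4 heart partners, 6 of 8 endoderm genes and 3 of 3 trophoblast genes, against 33.7% of all genes. Of 4 other genes with GATA-type zinc fingers, 1 did, Gata1, the red cell factor, with an untreated start level of 2.02. Median untreated start levels were 3.01, 9.09, 6.56 and 7.69 for the blood, heart, endoderm and trophoblast lists and 0.470 over all genes. On the spike-in scale H3K27me3 was called lower at the start of 7 of 8, 4 of 4, 8 of 8 and 3 of 3, close to the 99.2% over all genes.

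The share of H3K27me3 reads at the start rose in limma-voom at Tal1, the partner of Gata2 in blood (log2 1.26, adjusted p = 0.000410), and at the heart gene Hand2 (0.96, adjusted p = 0.00282). It also rose at the trophoblast genes Cdx2 (2.196, adjusted p = 8.85e-08) and Eomes (0.86, adjusted p = 0.0387, limma-voom). These 4 are all that passed among 3 blood, 3 heart, 4 endoderm and 2 trophoblast genes with the 200 reads needed for the test, where 11.9% of all genes tested were called higher. With limma at a pseudocount of 0.1, 3 of the 2727 genes were called and 0 of them higher, so these 4 calls were lost there. None was called lower, and the values below 0 were -1.12 at Gfi1b, -0.69 at Col4a1, -0.40 at Foxa1 and -0.40 at Runx1. Over whole loci, the share was called lower at 6 of 8 endoderm genes and higher at 0. It was lower at 4 and higher at 2 of 8 blood partners, lower at 2 and higher at 0 of 4 heart partners, and lower at 0 and higher at 1 of 3 trophoblast genes. Over all genes 15.6% were lower and 40.9% higher, and over those with a start in an H3K27me3 peak, which not every listed gene has, 37% and 12.5%.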

How the data were processed

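The authors deposited 18 tracks of log2 values in 1 kb windows every 500 bp and, for 4 marks, a list of peaks with a score per peak, replicated between the untreated libraries of the mark per the deposited readme. Per the submitters' processing notes, which give no roles or order, the tools were Trim Galore 0.4.2, Bowtie2 2.2.6.2 and SICER and the builds mm10 (GRCm38) and dm3. After undoing the log2, 100% of the deposited values were whole multiples of 1 step per track (tolerance 0.02), so whole read counts were recovered. In untreated tracks the step is that of RPM. For quantitative tracks the step is treated here as the spike-in factor of the authors.

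Non-overlapping windows were used. Reads spanning a window edge count in each window touched, 1.32 windows per read. Starts were the most upstream in the RefSeq promoter table (GRCm38.p6). Gata4 and Gata6 have none there, so the 5′ edge of the gene model was used, with the strand from general knowledge. Spike-in fits used limma 3.58.1 (R 4.3.3) on log2(mean scaled reads per window + 1), genes with at least 10 reads over 4 libraries, and Benjamini-Hochberg adjusted p under 0.05. A gene was assigned to a peak when at least 500 bp of its start window lay in one. Shares were tested with limma-voom and at least 200 reads, added after seeing the data. That minimum was set after simulated H3K27me3 start windows with at least 10 reads gave 47 calls among unchanged genes beside 39 of 151 changed (12659 start windows, 4-fold). On simulated data with 4-fold changes, limma-voom called 26 of 38 changed and 0 of the unchanged genes (2798 start windows, H3K27me3). Over loci it called 169 of 187 changed with 9 unchanged (15941 loci, H3K27me3). With 64-fold changes it called 58 of 58 changed and 10 unchanged among 2830 H3K27me3 start windows. The spread between simulated libraries was set and not taken from the data. The summit, the second Gata2 start and the block on shares were also added after seeing the data.

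Groups came from the labels. Named genes were the 5 members, their 3 nearest genes by profile and the listed partner genes that stood out. The members and lists were chosen with earlier results of these data known. Python 3.11.15 was used for all other steps.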

Additional observations from a re-analysis of the deposited data

How the results depend on the processing

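Scaling by library totals instead of the spike-in changed the H3K27me3 results most, since it removes the overall fall by construction. Limma then called 0 start, 5579 body, 5488 flank and 7899 locus windows, and the log2 change turned positive at the starts of Gata2 (0.19), Gata5 (1.43) and Gata6 (1.41), the bodies of Gata2 (0.10) and Gata6 (0.57) and the locus of Gata6 (0.46). On the spike-in scale all H3K27me3 changes of the 5 genes kept their sign and call under the other alternatives in which they were tested. The Gata3 start, with 0 reads in inhibitor replicate 1, was not tested where reads in all 4 libraries were required. Genes called for a changed share at the start numbered 605, and 3 with limma at a pseudocount of 0.1, 5388 with at least 10 reads (4547 higher, 841 lower), 367 with the other window set and 0 to 1942 without 1 replicate. The other window set gave -0.19 for the Gata2 start, and limma at pseudocounts of 1 and 0.1 gave -0.025 and -0.036 for the Gata5 locus. With limma at a pseudocount of 0.1 the start calls were lost at Gata3, Gata5 and Gata6 (adjusted p of 0.132, 0.0809 and 0.0726). The locus calls at Gata4 and Gata6 were kept under every alternative run. So was the Gata3 locus call, which is not independent of the filter in any of them. Without 1 replicate, the locus share ranged from -0.10 to 0.010 at Gata2 and -0.27 to 0.20 at Gata5, and the level relative to the library mean from -0.10 to 0.0075 and -0.28 to 0.20. Dividing by the median of 10 kb bins gave -0.30 at the Gata2 start, and left Gata5 and Gata6 at 1.03 and 1.00. The cause was not tested.

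For H3K36me2, genes called at the start (72) and in the body (19) became 0 and 0 with library totals, 2 and 0 at a pseudocount of 10, 0 and 0 without a filter, 13 and 5 with reads in all 4 libraries, 0 and 0 with limma-voom, and 28 at the start with windows within 2 kb. A pseudocount of 0.1 called 1 flank and 1 locus, and limma-voom 1 locus. Without 1 replicate they numbered 12 to 94 and 2 to 46. The locus changes then ranged from -0.37 to 0.43 (Gata2), -0.31 to 0.50 (Gata3), -0.35 to 0.78 (Gata4), -0.19 to 0.53 (Gata5) and -0.18 to 0.70 (Gata6), and were negative without DMSO replicate 2 or inhibitor replicate 1. Library totals gave -0.10, -0.055 and -0.018 at Gata2, Gata3 and Gata5. Relative to the library mean, leaving out 1 replicate gave -0.14 to 0.15 at Gata4 and -0.086 to 0.023 at Gata5, and the bin median -0.13 at Gata4 and -0.081 at Gata6. As shares of reads, 58 loci were called, and 0 with limma on log2 values, 202 with the other window set and 0 to 4991 without 1 replicate, where Gata4 ranged from -0.16 to 0.16 and Gata5 from -0.090 to 0.020. The cause was not tested.

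With the replicate number as a block, H3K36me2 calls on the spike-in scale were 6 (start, all higher), 1653 (body, 1616 higher), 3385 (flank, 3355 higher) and 3505 (locus, 3479 higher). For H3K36me2 shares over loci they were 11725 of 16981 (3002 higher, 8723 lower). Gata2 was among the lower ones (-0.18, limma-voom adjusted p = 0.00202). Same-numbered deviations correlated at 0.69 over H3K36me2 loci and 0.20 over H3K27me3 loci, with 2 pairs only, so the numbers were not taken to pair the samples. The block changed no H3K27me3 call of the 5 genes. Joining peaks across gaps of up to 3 kb lengthened those over Gata2, Gata4 and Gata5 to 52.0, 167.5 and 183.5 kb. Alternatives for the untreated levels were labelled moved 83 times and the same 267 times, so the gene orders given above hold for the main setting. The inhibitor H3K27me3 depth limits every residual level, most at Gata3 and Gata4.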
